A study of Mus musculus with 9 samples.

Results

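Posterior epiblast-like cells (pEpiLCs) were compared with anterior epiblast-like cells (aEpiLCs) for the genes that separate the states beyond the markers by which the states were defined. The comparison used 6 of the 9 bulk RNA-seq libraries of the series, pEpiLC replicates 1, 2 and 3 against aEpiLC replicates 1, 2 and 3, and the 3 EpiLC libraries gave the level at the start. Mouse epiblast-like cells (EpiLCs) had been made from naive embryonic stem cells (ESCs) over 48 h. The medium then held Activin A, FGF2 and the serum replacement KSR at 1%. They then spent 24 h with Activin A at 20 ng/ml and CHIR99021 at 3 µM to give pEpiLCs, or 24 h without either agent to give aEpiLCs, and both later media held 1% KSR. CHIR99021 inhibits GSK3 and so acts as a WNT pathway agonist. The labels give embryo as the tissue, but all 9 libraries came from cells in culture, described as wild-type with no cell line named for them. Activin A and CHIR99021 were added together, so their parts in a difference cannot be told apart. Nothing in the labels says that the replicates were separate cultures, so p-values measure the spread between these libraries, which may be technical. In bulk RNA, fewer cells of a type and less RNA per cell cannot be told apart.

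The epiblast is the tissue that gives rise to the embryo proper. On its posterior side WNT, NODAL and FGF signals act together at the primitive streak, where epithelial cells lose apical junctions, cross a basement membrane and become mesoderm or definitive endoderm. The anterior side is kept from these signals by secreted antagonists such as LEFTY, CER1 and DKK1 and forms surface and neural ectoderm. WNT ligands bind Frizzled receptors and stabilise beta-catenin, which activates genes with TCF/LEF factors, and many of these genes feed back to restrain the pathway.

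Members were taken from 37 lists of signalling, adhesion, metabolic and transcription factor genes. Of 1786 list members with a row among 23453 gene symbols, 1346 passed the filter on low counts. These numbers leave out 25 markers that define the states. Calls needed both a log2 fold change of 1 or more in size and an adjusted p (Benjamini-Hochberg) below 0.05 from edgeR's quasi-likelihood test. Levels are in CPM, counts scaled to library size and composition, are given in the order of replicates 1, 2 and 3, and are not scaled to gene length. Fold changes are pEpiLC over aEpiLC on the log2 scale. The background over 15198 tested genes was 387 calls (2.55%) on the pEpiLC side and 721 (4.74%) on the aEpiLC side, 7.29% in either direction. The median gene had a log2 fold change of 0.01. These background shares apply to the counts of every list below, and a list near them is not read as a result about its members.

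The 6 libraries held 20560564 to 23061815 counts, so that 3 counts, taken as the detection limit, corresponded to 0.130 to 0.143 CPM. The labelled states matched their markers. All 7 posterior markers checked were called higher in pEpiLCs (the call of Mixl1 was lost when an aEpiLC replicate was left out, up to an adjusted p of 0.073, and that of Gsc without aEpiLC replicate 2, with 0.0517), and their summed level was 2490, 890 and 879 CPM in pEpiLC and 35.1, 23.5 and 20.5 CPM in aEpiLC. Of 5 anterior markers, 4 were called higher in aEpiLCs (Pax6, Pou3f1, Sox2 and Otx2, the last not without pEpiLC replicate 1, with a log2 fold change of -0.98), and the sum was 87.0 to 153 CPM in pEpiLC and 422 to 474 CPM in aEpiLC. The fifth, Sox1, was not called in edgeR's test (adjusted p = 0.0554), at 0 to 0.322 CPM in pEpiLC and 0.540 to 1.47 CPM in aEpiLC. In EpiLC the anterior sum already stood at 350 to 376 CPM. Pou3f1 had a mean of 204 CPM in EpiLC and 203 CPM in aEpiLC. The 4 general epiblast genes summed to 1730, 2940 and 2660 CPM in pEpiLC and 3760 to 4000 CPM in aEpiLC, with Dnmt3b and Utf1 called higher in aEpiLCs, and pEpiLC replicate 1 was the lowest library. Both calls were lost without any 1 of the aEpiLC replicates (adjusted p up to 0.107 for Dnmt3b and 0.0735 for Utf1), and that of Dnmt3b also without pEpiLC replicate 1 or 3 or in limma voom. Among marker lists of other cells, the 5 of 8 extraembryonic endoderm genes in the table summed to 8.23 to 9.10 CPM in pEpiLC and 16.9 to 18.0 CPM in aEpiLC, with Dab2 called higher in aEpiLCs. The 5 of 8 fibroblast genes summed to 13.4 to 19.7 and 20.5 to 24.2 CPM, with Dcn called higher in aEpiLCs and Col1a2 not called at a log2 fold change of 1.23 (adjusted p = 0.0602), and the 6 of 8 trophoblast genes to 5.52 to 6.20 and 5.94 to 9.33 CPM, with Krt7 called higher in aEpiLCs and Gcm1 in pEpiLCs. The call of Gcm1 was lost without aEpiLC replicate 2 or 3 or pEpiLC replicate 2 or 3 (adjusted p up to 0.131). Apoa1 was at or below 3 counts in every pEpiLC library and Elf5 in every library of both states. The 8 naive ESC genes summed to 24.1 to 28.0 and 20.1 to 22.1 CPM, with Esrrb called higher in pEpiLCs and Klf2 and Nr0b1 in aEpiLCs. The part of other cells in the results was not tested. One library stood apart: 323 and 333 genes differed by more than 4-fold between pEpiLC replicate 1 and replicates 2 and 3, against 66 between replicates 2 and 3 and 66 to 76 among aEpiLC replicates. Counts of a list's calls and named fold changes that move by more than 1.5 times without it are therefore given with and without it.

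Signalling genes were the class with the largest share called higher in pEpiLCs. Of 346 tested members, 53 (15.3%) were called on the pEpiLC side and 33 (9.54%) on the aEpiLC side. In the adhesion class the balance lay the other way, with 18 (5.33%) of 338 members higher in pEpiLCs and 44 (13.0%) in aEpiLCs. Transcription factor genes had 24 (7.59%) and 29 (9.18%) of 316 members called, respectively. Metabolic genes had 9 (2.60%) and 10 (2.89%) of 346 members called, against 2.55% and 4.74% of all genes. Without pEpiLC replicate 1 the counts were 54 and 45 for signalling, 18 and 46 for adhesion, 26 and 33 for transcription factors and 9 and 10 for metabolism. They were lower without 1 of the aEpiLC replicates, at 26 to 36 and 16 to 20 for signalling, 7 to 9 and 26 to 28 for adhesion, 9 to 11 and 17 to 21 for transcription factors and 4 to 6 and 4 to 7 for metabolism. In every alternative setting tried, 40 of the 104 members higher in pEpiLCs and 40 of the 116 higher in aEpiLCs were called, a gene left untested counting as not called. Among all 1346 tested members, called or not, 298 had every pEpiLC library above every aEpiLC library and 387 the reverse, 50.9% together, against 38.8% of all genes tested.

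**Figure D1:**
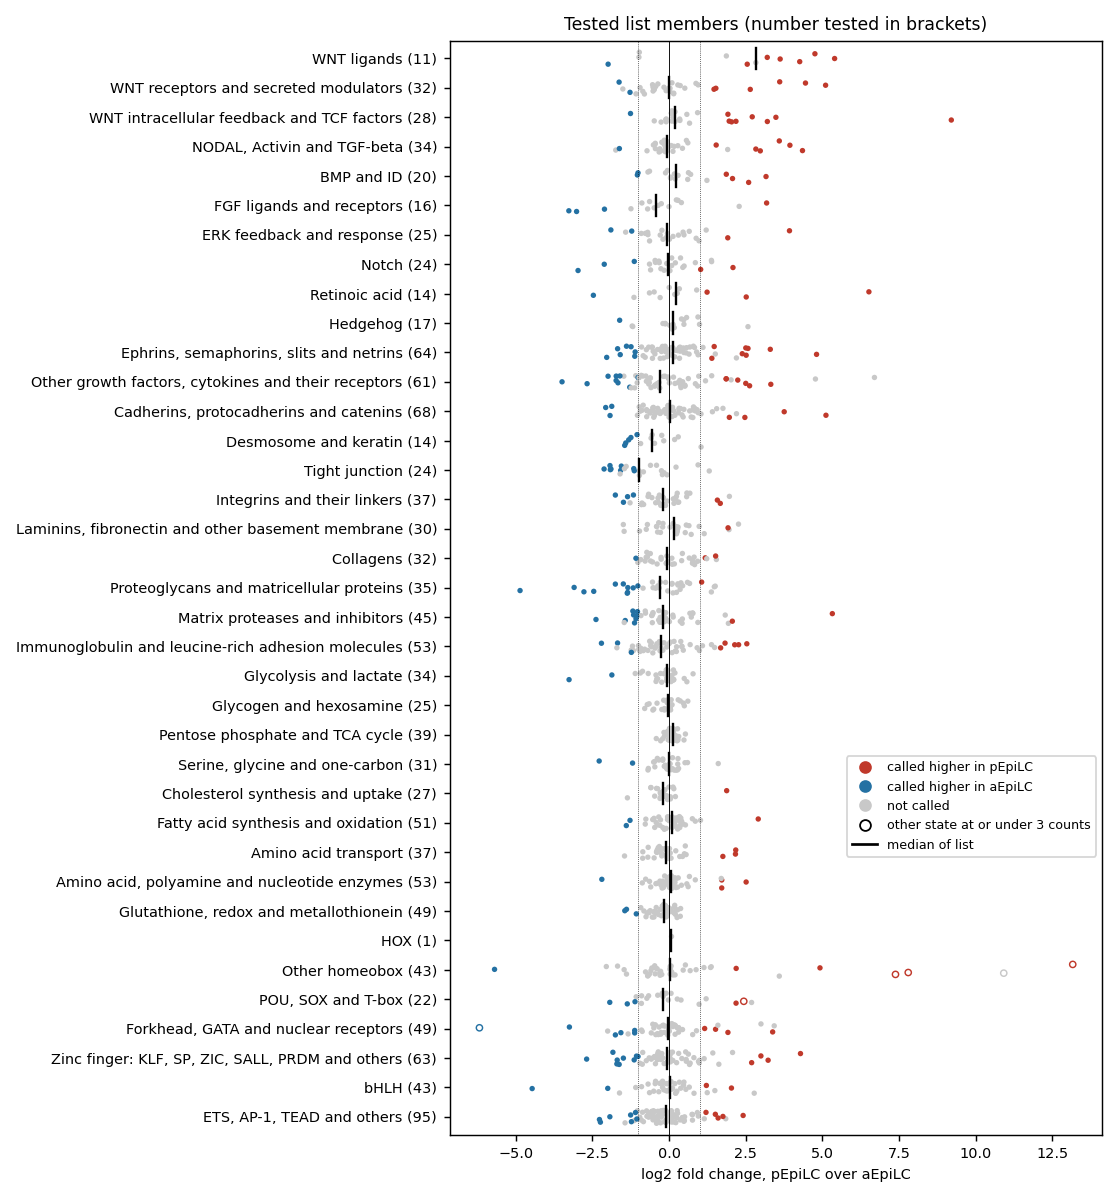
Log2 fold change (pEpiLC over aEpiLC, horizontal axis) of tested members of 37 gene lists, with the number tested in brackets. Red and blue points are members called higher in pEpiLCs and in aEpiLCs, grey points were not called, open points are genes with 3 counts or fewer in every library of the other state, whose fitted value is not a bound, and the black bar is the list's median. Of the 11 WNT ligands 6 are red, and the medians of the tight junction (-0.97) and the desmosome and keratin (-0.57) lists lie to the left of 0.

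WNT ligands were among the genes that separated the states most. Of 18 ligand genes in the table, 11 were tested. The pEpiLC side held 6 calls and the aEpiLC side 1. The list's median log2 fold change was 2.83, and 1.44 without pEpiLC replicate 1. Wnt8a (ENSMUSG00000012282.2), a canonical ligand of the primitive streak, had 75.3, 108 and 116 CPM in pEpiLC and 11.4, 5.98 and 6.85 CPM in aEpiLC. For Wnt8a the log2 fold change was 3.63 ± 0.27 (SE) with adjusted p = 0.00033. In EpiLCs it stood at 0.793, 0.990 and 1.01 CPM, so both later states were above the start. Wnt11 (ENSMUSG00000015957.12, chromosome 7, 98835112 to 98855195), a ligand that mostly signals without beta-catenin, had 8.24, 10.9 and 10.8 CPM in pEpiLC and 0.235, 0.0900 and 0.368 CPM in aEpiLC. For Wnt11 the log2 fold change was 5.40 ± 0.35 (SE) with adjusted p = 0.000172. Its aEpiLC level lay near the detection limit. Wnt5b, another non-canonical ligand, had 43.7, 20.1 and 17.6 CPM in pEpiLC and 2.67, 3.24 and 2.90 CPM in aEpiLC (log2 fold change 3.21 ± 0.37 (SE), adjusted p = 0.00185), and the canonical streak ligand Wnt3 had 93.8, 54.7 and 61.6 CPM in pEpiLC and 3.85, 1.40 and 2.53 CPM in aEpiLC. For Wnt3 the log2 fold change was 4.76 ± 0.36 (SE) with adjusted p = 0.000334. Wnt9b and Wnt2b were called at lower levels, with Wnt9b near the detection limit in aEpiLC. Wnt9b had 3.86, 1.78 and 1.75 CPM in pEpiLC and 0.235, 0.135 and 0 CPM in aEpiLC (4.26 ± 0.70, or 5.06 without aEpiLC replicate 1), and Wnt2b had 6.39, 1.39 and 1.47 CPM in pEpiLC and 0.516, 0.720 and 0.322 CPM in aEpiLC (2.55 ± 0.70, or 1.46 without pEpiLC replicate 1). Wnt4 was the ligand higher in aEpiLCs (0.238, 0.695 and 0.873 CPM in pEpiLC and 1.69, 2.61 and 2.94 CPM in aEpiLC). Leaving out 1 library ended some of these calls, namely Wnt2b without any 1 of the aEpiLC replicates (adjusted p 0.117 to 0.156), Wnt4 without any 1 of the aEpiLC replicates or pEpiLC replicate 2 (adjusted p 0.0505 to 0.0958) and Wnt9b without aEpiLC replicate 2 (adjusted p 0.0523). Wnt3, Wnt5b and the low ligands were chosen after their values were seen, as were the other genes said below to be given for context.

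RefSeq promoter windows, 250 bases before to 50 bases after a gene's start on GRCm38.p6, were searched on both strands for the letters CTTTGA, the core of a TCF/LEF site. On the other strand the site reads TCAAAG. Windows were at hand for 14 of the 20 called members of the WNT lists that were higher in pEpiLCs, and 6 of the 14 genes (42.9%) held a match. The share was 25.7% of the 70 called list members higher in pEpiLCs that had a window, 12.2% of 82 higher in aEpiLCs and 18.2% of all 27025 genes with a window. The other motifs searched were the E-box CACGTG, the T-box site AGGTGTGA, the octamer ATGCAAAT and the cyclic AMP response element TGACGTCA. The E-box was in 7.14% of the 70 genes, 14.6% of the 82 and 8.09% of all genes. For the T-box site these shares were 2.86%, 1.22% and 1.48%, for the octamer 4.29%, 1.22% and 1.97%, and for the cyclic AMP response element 1.43%, 3.66% and 2.03%. With 70 and 82 genes, each of these 3 rests on 1 to 3 genes with a match. All shares are a description of the letters, and a match is not evidence of binding. The windows of 2 feedback factors and 2 ligands with a match are shown 5′ to 3′ in the direction of the gene, to set the sequences beside the levels, with the match in capitals. Sp5 had 2 matches, 104 and 204 bases before the start, Wnt5b had 1 at 71 bases before it, and Sp8 and Wnt11 each had 1 on the other strand at 50 bases before it. The feedback gene Axin2 had a window without these letters.
Sp5 (chr2:70474673-70474972, plus strand): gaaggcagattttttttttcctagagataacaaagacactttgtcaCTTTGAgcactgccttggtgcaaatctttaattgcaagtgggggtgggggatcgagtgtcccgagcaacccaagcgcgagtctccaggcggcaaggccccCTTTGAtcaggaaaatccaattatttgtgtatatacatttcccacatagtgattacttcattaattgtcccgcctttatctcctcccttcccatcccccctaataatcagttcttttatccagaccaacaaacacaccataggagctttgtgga
Sp8 (chr12:118846983-118847282, plus strand): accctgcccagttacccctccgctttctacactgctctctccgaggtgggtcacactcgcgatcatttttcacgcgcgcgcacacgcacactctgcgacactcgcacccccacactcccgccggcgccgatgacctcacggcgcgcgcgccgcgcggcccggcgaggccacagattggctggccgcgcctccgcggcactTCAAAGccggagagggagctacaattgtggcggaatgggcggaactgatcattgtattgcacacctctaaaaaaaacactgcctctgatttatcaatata
Wnt11 (chr7:98834862-98835161, plus strand): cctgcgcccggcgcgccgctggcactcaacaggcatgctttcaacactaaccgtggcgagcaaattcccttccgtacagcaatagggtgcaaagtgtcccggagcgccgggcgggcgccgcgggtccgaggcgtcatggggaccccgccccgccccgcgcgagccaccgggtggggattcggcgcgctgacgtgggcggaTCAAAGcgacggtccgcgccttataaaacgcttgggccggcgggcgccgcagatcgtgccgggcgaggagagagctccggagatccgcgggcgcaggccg
Wnt5b (chr6:119449337-119449636, minus strand): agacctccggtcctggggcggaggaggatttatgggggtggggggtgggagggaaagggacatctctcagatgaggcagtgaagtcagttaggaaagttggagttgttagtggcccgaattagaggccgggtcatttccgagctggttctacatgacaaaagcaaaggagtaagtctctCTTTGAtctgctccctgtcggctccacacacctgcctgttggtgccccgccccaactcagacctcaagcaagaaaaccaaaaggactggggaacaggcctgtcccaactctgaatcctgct

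Feedback genes inside the cell were also called mostly on the pEpiLC side. Of 28 tested members of this list, 8 were called higher in pEpiLCs and 1, Tcf7l1, higher in aEpiLCs, with a median of 0.20. Axin2 (ENSMUSG00000000142.15, chromosome 11, 108920349 to 108950783), a scaffold of the beta-catenin destruction complex and a standard readout of the pathway, had 176, 113 and 102 CPM in pEpiLC and 11.96, 11.97 and 10.9 CPM in aEpiLC. For Axin2 the log2 fold change was 3.49 ± 0.22 (SE) with adjusted p = 0.00015. Ccnd2, a cyclin of the G1 phase, had 34.9, 25.1 and 29.3 CPM in pEpiLC and 6.19, 6.21 and 7.26 CPM in aEpiLC. For Ccnd2 the log2 fold change was 2.18 ± 0.15 (SE) with adjusted p = 0.000267. Sp5 and Sp8, zinc finger factors that act on TCF/LEF target genes and whose windows are shown above, are given for context. Sp5 had 205, 38.7 and 38.3 CPM in pEpiLC and 0.328, 0.0900 and 0.0460 CPM in aEpiLC, and its values in aEpiLC were at or near the detection limit. Sp8 had 55.0, 38.5 and 36.7 CPM in pEpiLC and 7.23, 2.25 and 4.64 CPM in aEpiLC. For Sp8 the log2 fold change was 3.21 ± 0.37 (SE) with adjusted p = 0.0019. Porcn, the enzyme that lipidates WNT proteins, and Tnfrsf19, a TNF receptor family member, were also higher in pEpiLCs, by 2.71 ± 0.22 and 1.96 ± 0.15. Nkd1, an inhibitor of Dishevelled, and Pygo1, a nuclear cofactor of beta-catenin, completed the 8 with log2 fold changes of 2.04 ± 0.51 and 1.92 ± 0.50. That of Nkd1 was 1.19 without pEpiLC replicate 1. Tcf7l1, the TCF factor that mainly represses target genes, had 34.1, 58.7 and 56.0 CPM in pEpiLC and 115, 126 and 115 CPM in aEpiLC. For Tcf7l1 the log2 fold change was -1.26 ± 0.19 (SE) with adjusted p = 0.00524. The gene of beta-catenin itself, Ctnnb1, was not called, with 888 to 899 CPM in pEpiLC and 954 to 968 CPM in aEpiLC. The calls of Nkd1 without any 1 of the aEpiLC replicates (adjusted p 0.109 to 0.134) and Pygo1 without any 1 of the aEpiLC replicates or pEpiLC replicate 3 (adjusted p 0.059 to 0.147) were lost.

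Receptors and secreted modulators of WNT divided by gene. Of 32 tested, 6 were called higher in pEpiLCs and 2 in aEpiLCs, and the median was 0.02. With pEpiLC replicate 1 left out, 6 of 32 receptor and modulator genes were called on the pEpiLC side and 1 on the other (median -0.10). Fzd10 (ENSMUSG00000081683.5, chromosome 5, 128600844 to 128604093), a Frizzled receptor, had 113, 43.6 and 47.1 CPM in pEpiLC and 4.93, 1.94 and 2.48 CPM in aEpiLC. For Fzd10 the log2 fold change was 4.45 ± 0.50 (SE) with adjusted p = 0.00162. Ror2, a receptor tyrosine kinase for non-canonical WNT ligands, had 67.5, 52.9 and 49.5 CPM in pEpiLC and 22.5, 17.4 and 21.6 CPM in aEpiLC. For Ror2 the log2 fold change was 1.47 ± 0.15 (SE) with adjusted p = 0.00108. Frzb, a secreted Frizzled-related protein that binds WNT ligands, had 56.2, 3.48 and 2.62 CPM in pEpiLC and 0.657, 0.585 and 0.552 CPM in aEpiLC. For Frzb the log2 fold change was 5.11 ± 1.34 (SE) with adjusted p = 0.0406, and 2.35 without pEpiLC replicate 1. Its level in replicate 1 was thus far above that in the other pEpiLC libraries. Every pEpiLC library was above every aEpiLC library, but this was a condition for naming the gene. Rspo3, a secreted enhancer of WNT signals, Notum, which removes their lipid, and Apcdd1, a membrane inhibitor, were higher by 3.61 ± 0.71, 2.65 ± 0.59 and 1.53 ± 0.33 and are given for context. The value was 2.53 without pEpiLC replicate 1 for Rspo3 and 1.97 without pEpiLC replicate 1 for Notum. The secreted antagonists Sfrp1 and Sfrp4 were higher in aEpiLCs. Sfrp1 had 6.72, 5.91 and 6.11 CPM in pEpiLC and 22.3, 17.8 and 17.9 CPM in aEpiLC. For Sfrp1 the log2 fold change was -1.63 ± 0.14 (SE) with adjusted p = 0.00055. Sfrp4 had 2.29, 5.78 and 4.64 CPM in pEpiLC and 8.40, 11.7 and 10.7 CPM in aEpiLC. For Sfrp4 the log2 fold change was -1.27 ± 0.31 (SE) with adjusted p = 0.0332. Of the receptor and modulator calls named here, those lost were Frzb, Rspo3, Notum and Apcdd1 without any 1 of the aEpiLC replicates (adjusted p 0.061 to 0.144), Sfrp4 without any 1 of the aEpiLC replicates or pEpiLC replicate 3 (adjusted p 0.0715 to 0.127) and Sfrp4 without pEpiLC replicate 1 (log2 fold change -0.97).

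Genes of the NODAL, Activin and TGF-beta list had 6 members higher in pEpiLCs and 1 higher in aEpiLCs among 34 tested, with a median of -0.08. The counts for this list were 6 and 2 of 34 without pEpiLC replicate 1 (median -0.11). Tgfbr3 (ENSMUSG00000029287.14, chromosome 5, 107106570 to 107289629), the co-receptor betaglycan, separated the states with the smallest adjusted p of the named signalling genes. It had 167, 135 and 139 CPM in pEpiLC and 8.02, 7.56 and 5.98 CPM in aEpiLC (log2 fold change 4.35 ± 0.14 (SE), adjusted p = 1.22e-05), against 2.29, 2.40 and 2.99 CPM in EpiLC. Pmepa1, a feedback inhibitor that holds SMAD2 and SMAD3, had 58.5, 48.2 and 44.6 CPM in pEpiLC and 5.11, 2.25 and 2.48 CPM in aEpiLC. For Pmepa1 the log2 fold change was 3.94 ± 0.30 (SE) with adjusted p = 0.000334. EpiLC stood between at 14.9, 15.1 and 15.7 CPM. Nodal and its antagonists Lefty1 and Lefty2 are given for context. Their log2 fold changes were 2.83 ± 0.23 for Nodal, 2.98 ± 0.59 for Lefty1 and 3.60 ± 0.66 for Lefty2. Lefty1 had 3.75 without aEpiLC replicate 1, and Lefty2 had 4.21 without aEpiLC replicate 1 and 2.698 without pEpiLC replicate 1. The EpiLC level of Lefty1 was 184, 315 and 244 CPM, above the aEpiLC libraries (42.6, 19.9 and 7.22 CPM). Smad7, an inhibitory SMAD, was higher by 1.54 ± 0.29, and Tgfb2, a ligand at low level, was higher in aEpiLCs (-1.62 ± 0.28). The receptor gene Acvr1b and the effector gene Smad2 were not called (log2 fold change -0.12 ± 0.10 and -0.13 ± 0.08). Calls that depended on a library or setting were those of Lefty1, Smad7 and Tgfb2 without aEpiLC replicate 2 (adjusted p 0.0568 to 0.0842) and Lefty2 without aEpiLC replicate 2 or 3 (adjusted p 0.0587 to 0.0698).

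In the BMP and ID list, 4 of 20 tested members were called higher in pEpiLCs and 2 in aEpiLCs (median 0.22). The calls on the aEpiLC side were lost without pEpiLC replicate 1, and the pEpiLC side then held 4 of 20 (median 0.08). Bmp7, a BMP ligand, had 60.01, 18.9 and 17.1 CPM in pEpiLC and 7.32, 3.87 and 4.69 CPM in aEpiLC. For Bmp7 the log2 fold change was 2.60 ± 0.53 (SE) with adjusted p = 0.0172, and 1.77 without pEpiLC replicate 1. Chrd, a secreted BMP antagonist of the node, had 11.5, 9.26 and 10.6 CPM in pEpiLC and 2.67, 2.29 and 2.48 CPM in aEpiLC. For Chrd the log2 fold change was 2.07 ± 0.16 (SE) with adjusted p = 0.000361. Both a ligand and an antagonist were higher in the same state. Smad6, an inhibitory SMAD, was higher by 1.87 ± 0.48, and Bmp5 by 3.17 ± 0.72 at under 1 CPM in every library and near the detection limit in aEpiLC. The value for Bmp5 was 4.70 without aEpiLC replicate 1. The type 1 receptor gene Bmpr1b had 2.96, 4.61 and 3.22 CPM in pEpiLC and 7.65, 8.37 and 5.75 CPM in aEpiLC, and Id2, an inhibitor of bHLH factors, had 2.48, 5.17 and 4.32 CPM in pEpiLC and 9.43, 6.88 and 8.23 CPM in aEpiLC, with log2 fold changes of -1.01 ± 0.23 and -1.03 ± 0.27. Bmp4 was not called at 1.304 to 1.84 CPM in pEpiLC and 0.985 to 1.80 CPM in aEpiLC. The calls that did not hold in each setting were those of Bmp5 without aEpiLC replicate 2 or 3 or pEpiLC replicate 3 (adjusted p 0.0653 to 0.108), Bmp7 and Smad6 without any 1 of the aEpiLC replicates (adjusted p 0.0517 to 0.135), Bmpr1b without aEpiLC replicate 1 or 2 or pEpiLC replicate 3 (adjusted p 0.0772 to 0.112), Bmpr1b and Id2 without pEpiLC replicate 1 or in limma voom (log2 fold change -0.78 to -0.93) and Id2 without any 1 of the aEpiLC replicates or pEpiLC replicate 3 or with the replicate block (adjusted p 0.0636 to 0.139).

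FGF genes differed in direction by member. Of 16 tested, Fgf17 was called higher in pEpiLCs and Fgf4, Fgfr2 and Fgfbp1 higher in aEpiLCs, with a median of -0.42. With pEpiLC replicate 1 left out, 2 of 17 FGF genes were called on the pEpiLC side and 4 on the other (median -0.19). Fgf4 (ENSMUSG00000050917.5, chromosome 7, 144847367 to 144865243), the FGF ligand of naive and early epiblast cells, had 1.62, 4.82 and 5.93 CPM in pEpiLC and 28.3, 32.2 and 40.0 CPM in aEpiLC. For Fgf4 the log2 fold change was -3.02 ± 0.39 (SE) with adjusted p = 0.003. Its EpiLC level of 106, 108 and 88.5 CPM was above both later states. The authors call Fgf4 a primitive streak marker. By qRT-PCR they found it enriched in dissected proximal posterior epiblast, the opposite of its low level in pEpiLCs. Fgfr2 (ENSMUSG00000030849.18, chromosome 7, 130162451 to 133123350), an FGF receptor, had 3.15, 5.21 and 5.70 CPM in pEpiLC and 47.3, 48.2 and 40.2 CPM in aEpiLC (log2 fold change -3.27 ± 0.21 (SE), adjusted p = 0.000165), against 8.68, 9.57 and 6.33 CPM in EpiLC, so here aEpiLCs stood above both other states. The receptor gene Fgfr1 was not called, at 169 to 248 CPM in pEpiLC and 188 to 205 CPM in aEpiLC, and the libraries of the states overlapped. Fgf17, a ligand of the FGF8 subfamily, had 8.87, 6.13 and 6.43 CPM in pEpiLC and 0.704, 0.720 and 0.920 CPM in aEpiLC. For Fgf17 the log2 fold change was 3.18 ± 0.25 (SE) with adjusted p = 0.000334. Among 25 tested ERK feedback and response genes, 2 were higher in each state. The counts for ERK genes were 2 and 5 of 25 without pEpiLC replicate 1 (median -0.15). Il17rd (also called Sef), a membrane inhibitor of FGF signalling, had 315, 268 and 243 CPM in pEpiLC and 92.2, 70.9 and 55.9 CPM in aEpiLC. For Il17rd the log2 fold change was 1.92 ± 0.18 (SE) with adjusted p = 0.000832. Lzts1, a leucine zipper protein, had 75.3, 21.7 and 21.1 CPM in pEpiLC and 3.52, 1.84 and 2.39 CPM in aEpiLC. For Lzts1 the log2 fold change was 3.93 ± 0.58 (SE) with adjusted p = 0.00532, and 3.06 without pEpiLC replicate 1. Dusp4, a phosphatase of ERK and other MAP kinases, was higher in aEpiLCs, with 42.9, 30.5 and 28.9 CPM in pEpiLC and 84.5, 74.1 and 79.0 CPM in aEpiLC (log2 fold change -1.22 ± 0.15 (SE), adjusted p = 0.00253), while Dusp6, a phosphatase for ERK, was not called (0.49 ± 0.28). Fgfbp1 was no longer called without any 1 of the aEpiLC replicates (adjusted p 0.062 to 0.0775).

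Notch genes had 2 members higher in pEpiLCs and 3 in aEpiLCs among 24 tested, with a median of -0.02. Hes1, a bHLH repressor downstream of Notch, had 69.9, 26.9 and 25.5 CPM in pEpiLC and 13.8, 6.66 and 8.32 CPM in aEpiLC (log2 fold change 2.09 ± 0.45 (SE), adjusted p = 0.0211, and 1.45 without pEpiLC replicate 1), and the receptor gene Notch3 had 294, 327 and 337 CPM in pEpiLC and 191, 148 and 129 CPM in aEpiLC. For Notch3 the log2 fold change was 1.03 ± 0.14 (SE) with adjusted p = 0.00365. Lfng, a glycosyltransferase that modifies Notch, was higher in aEpiLCs, with 5.34, 1.65 and 2.02 CPM in pEpiLC and 11.9, 12.6 and 14.5 CPM in aEpiLC. For Lfng the log2 fold change was -2.11 ± 0.40 (SE) with adjusted p = 0.0141, and -2.81 without pEpiLC replicate 1. Its paralog Mfng was also higher there (-1.13 ± 0.21). Among 14 retinoic acid genes, the pEpiLC side held 4 calls and the aEpiLC side 1, with a median of 0.23. Leaving out pEpiLC replicate 1 gave 2 higher in pEpiLCs and 2 in aEpiLCs of 14 retinoic acid genes tested (median 0.10). Cyp26a1, the enzyme that degrades retinoic acid, had 85.2, 2.96 and 2.07 CPM in pEpiLC and 0.657, 0.0900 and 0.230 CPM in aEpiLC. For Cyp26a1 the log2 fold change was 6.52 ± 1.78 (SE) with adjusted p = 0.0457, and 7.51 without aEpiLC replicate 1 and 2.95 without pEpiLC replicate 1. Almost all of its mean came from pEpiLC replicate 1, and it was listed at 0 in the 3 EpiLC libraries. Crabp2, which carries retinoic acid to the nucleus, went the other way and with little spread in pEpiLC, at 8.24, 8.91 and 8.73 CPM in pEpiLC and 38.9, 50.3 and 54.1 CPM in aEpiLC. For Crabp2 the log2 fold change was -2.47 ± 0.14 (SE) with adjusted p = 0.000108. Rxrg, a retinoid X receptor, was higher in pEpiLCs by 1.24 ± 0.29. Of 17 Hedgehog genes, 0 were called higher in pEpiLCs in edgeR's test (5 at an unadjusted p below 0.05, 0 called in DESeq2 or limma voom and 1 in edgeR's likelihood ratio test), and 1, Disp2, was higher in aEpiLCs at 0.429 to 0.506 CPM in pEpiLC and 1.03 to 1.89 CPM in aEpiLC. Among the calls named here, losses concerned Cyp26a1 without any 1 of the aEpiLC replicates or in limma voom (adjusted p 0.0543 to 0.16), Disp2 without aEpiLC replicate 2 or 3 or pEpiLC replicate 2 or 3 (adjusted p 0.053 to 0.0882), Hes1 without aEpiLC replicate 2 or 3 (adjusted p 0.0933 to 0.0936), Lfng and Rxrg without any 1 of the aEpiLC replicates (adjusted p 0.0513 to 0.105), Mfng without aEpiLC replicate 1 or 3 (adjusted p 0.0534 to 0.0595), Mfng without pEpiLC replicate 1 or in limma voom (log2 fold change -0.96 to -0.97), Notch3 without aEpiLC replicate 2 or 3 or pEpiLC replicate 3 (log2 fold change 0.91 to 0.998) and Rxrg without pEpiLC replicate 1 or in limma voom (log2 fold change 0.87 to 0.93).

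Ephrins, semaphorins, slits and netrins, cues that guide cells and axons, had 8 members higher in pEpiLCs and 7 in aEpiLCs among 64 tested. Their median was 0.12. With pEpiLC replicate 1 left out, 7 of 65 guidance genes were called on the pEpiLC side and 12 on the other (median -0.07). Epha2 and Epha1, receptor tyrosine kinases for ephrins, were higher in pEpiLCs. Epha2 had 329.9, 214 and 180.4 CPM in pEpiLC and 41.0, 42.1 and 38.4 CPM in aEpiLC. For Epha2 the log2 fold change was 2.58 ± 0.21 (SE) with adjusted p = 0.000448. Epha1 had 378, 287 and 267 CPM in pEpiLC and 105, 117 and 113 CPM in aEpiLC. For Epha1 the log2 fold change was 1.47 ± 0.13 (SE) with adjusted p = 0.000635. Plxna2 (ENSMUSG00000026640.12, chromosome 1, 194618218 to 194816869), a semaphorin receptor, had 153, 8.73 and 7.49 CPM in pEpiLC and 2.06, 2.12 and 1.84 CPM in aEpiLC. For Plxna2 the log2 fold change was 4.81 ± 1.28 (SE) with adjusted p = 0.0418, and 2.02 without pEpiLC replicate 1. The level in pEpiLC replicate 1 was far above the others here too. Sema3e and Sema4a, semaphorin ligands, were higher in aEpiLCs. Sema3e had 15.9, 22.7 and 23.7 CPM in pEpiLC and 61.5, 52.4 and 49.1 CPM in aEpiLC. For Sema3e the log2 fold change was -1.39 ± 0.16 (SE) with adjusted p = 0.00197. Sema4a had 3.67, 3.48 and 3.999 CPM in pEpiLC and 8.16, 9.09 and 9.06 CPM in aEpiLC. For Sema4a the log2 fold change was -1.24 ± 0.15 (SE) with adjusted p = 0.00211. The other members called higher in pEpiLCs, given for context, were Ntn1 (3.30 ± 0.88, or 1.47 without pEpiLC replicate 1), Efnb1 (2.52 ± 0.39), Efna3 (2.50 ± 0.63, or 1.34 without pEpiLC replicate 1), Nrp2 (2.39 ± 0.33) and Epha7 (1.40 ± 0.29). Those higher in aEpiLCs were Sema3c (-2.03 ± 0.46), Ephb1 (-1.59 ± 0.23), Epha8 (-1.12 ± 0.22), Sema3b (-1.10 ± 0.21) and Robo2 (-1.68 ± 0.33). Ligands and receptors of 1 family thus lay on both sides. Among these, calls were lost for Efna3, Epha7, Sema3c, Epha8 and Sema3b without any 1 of the aEpiLC replicates (adjusted p 0.0514 to 0.135), Epha7 without pEpiLC replicate 1 (log2 fold change 0.99), Epha8 without pEpiLC replicate 1 or in limma voom (log2 fold change -0.92 to -0.97), Ntn1 without any 1 of the aEpiLC replicates or with the replicate block (adjusted p 0.0559 to 0.15), Robo2 without any 1 of the aEpiLC replicates or pEpiLC replicate 3 or with all 9 libraries (adjusted p 0.0543 to 0.0744) and Sema3b without pEpiLC replicate 3 (log2 fold change -0.96). The call of Plxna2 was lost without any 1 of the aEpiLC replicates or in limma voom (adjusted p 0.0552 to 0.148).

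Other growth factors, cytokines and their receptors had 6 members (9.84%) called higher in pEpiLCs and 9 (14.8%) in aEpiLCs among 61 tested, with a median of -0.30, against 2.55% and 4.74% of all genes. Apln, the ligand of the apelin receptor, had 119, 31.7 and 25 CPM in pEpiLC and 6.47, 5.26 and 5.84 CPM in aEpiLC. For Apln the log2 fold change was 3.32 ± 0.60 (SE) with adjusted p = 0.0119, and 2.28 without pEpiLC replicate 1. Igfbp3, which binds insulin-like growth factors, had 198, 104 and 107 CPM in pEpiLC and 26.9, 23.4 and 21.8 CPM in aEpiLC. For Igfbp3 the log2 fold change was 2.50 ± 0.26 (SE) with adjusted p = 0.00115. The HIPPO pathway scaffolds Amot and Amotl2 differed in direction. Amotl2 was higher in aEpiLCs, with 99.4, 129.8 and 127 CPM in pEpiLC and 282, 296 and 287 CPM in aEpiLC. For Amotl2 the log2 fold change was -1.28 ± 0.10 (SE) with adjusted p = 0.000363. Amot, given for context, had 419, 91.9 and 74.9 CPM in pEpiLC and 37.9, 31.7 and 25.3 CPM in aEpiLC. For Amot the log2 fold change was 2.63 ± 0.65 (SE) with adjusted p = 0.0329, and 1.41 without pEpiLC replicate 1. Gfra1 (ENSMUSG00000025089.15, chromosome 19, 58235604 to 58455909), the receptor for GDNF, had 0.238, 3.22 and 2.99 CPM in pEpiLC and 25.01, 24.1 and 23.9 CPM in aEpiLC. For Gfra1 the log2 fold change was -3.49 ± 0.58 (SE) with adjusted p = 0.00864. EpiLC stood at 4.24, 4.24 and 4.39 CPM. Erbb2, a receptor tyrosine kinase, had 12.2, 8.56 and 10.8 CPM in pEpiLC and 21.1, 21.6 and 20.9 CPM in aEpiLC. For Erbb2 the log2 fold change was -1.01 ± 0.15 (SE) with adjusted p = 0.00486. Given for context, Pdgfa (1.86 ± 0.19), Pdgfd (1.87 ± 0.35) and the receptor gene Ngfr (2.24 ± 0.56, or 1.60 without pEpiLC replicate 1) were also higher in pEpiLCs, and the PDGF ligand Pdgfb was higher in aEpiLCs (-1.66 ± 0.23). Also higher there were Nrg1 (-1.72 ± 0.21), which signals through ERBB receptors, the neurotrophin Ntf3 (-1.60 ± 0.41), the neurotrophin receptor Ntrk2 (-1.99 ± 0.28), Ccn3 (-2.67 ± 0.35) and Igfbp5 (-1.73 ± 0.32). Of the growth factor calls named here, those lost were Apln, Amot and Ngfr without any 1 of the aEpiLC replicates (adjusted p 0.0556 to 0.127), Erbb2 without aEpiLC replicate 2 or pEpiLC replicate 2 (log2 fold change -0.88 to -0.99), Ntf3 without any 1 of the aEpiLC replicates or pEpiLC replicate 2 or 3 or in DESeq2 or with no filter (adjusted p 0.0628 to 0.129) and Pdgfd and Igfbp5 without aEpiLC replicate 2 or 3 (adjusted p 0.0539 to 0.0704).

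**Figure D2:**
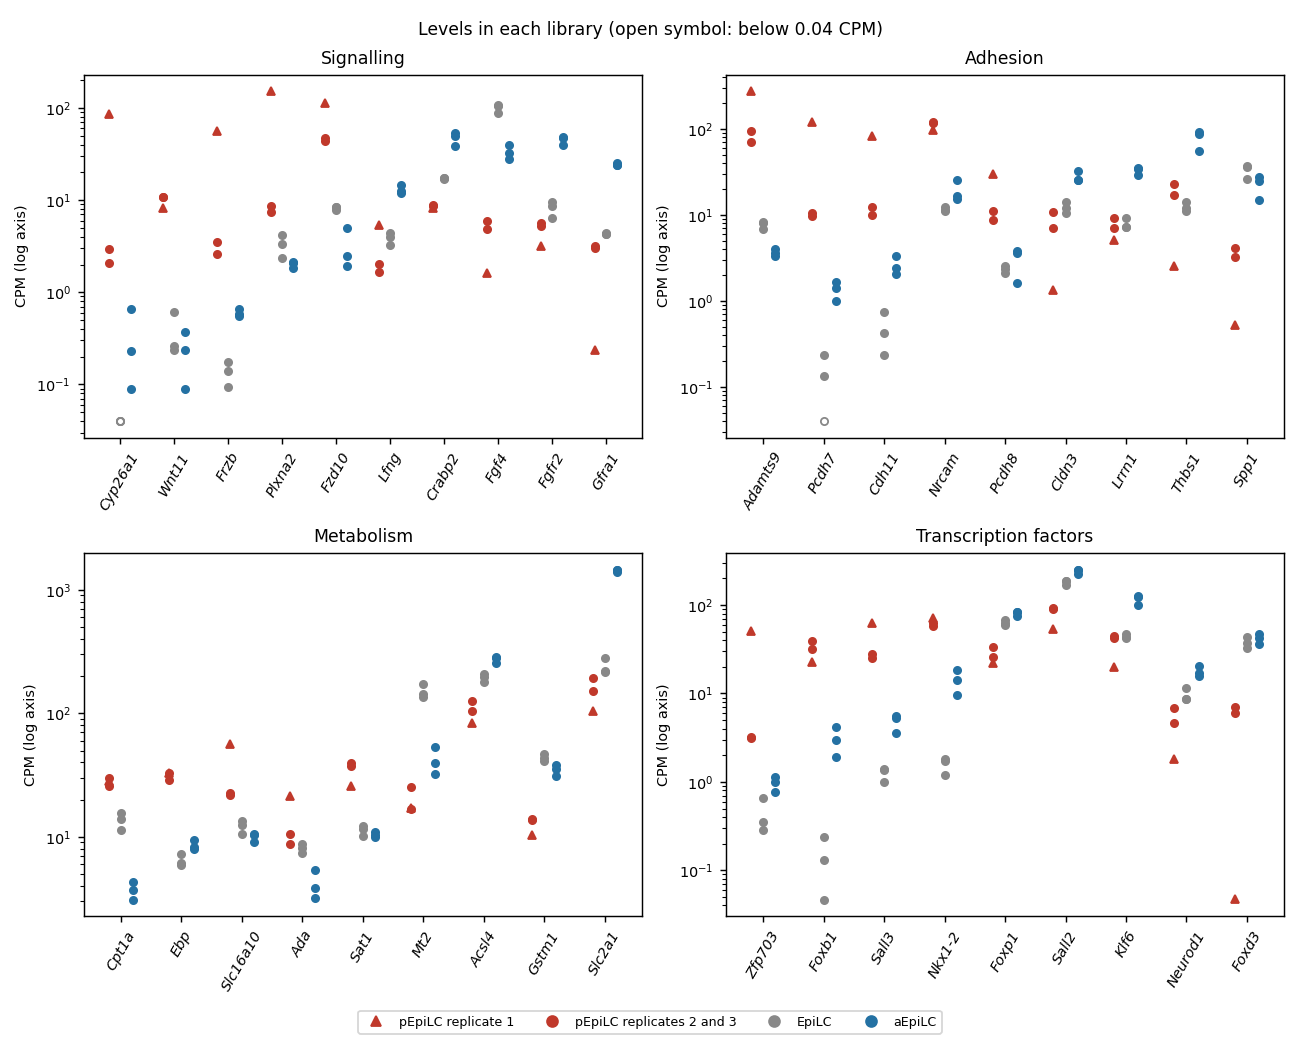
Level in each library (CPM, log axis) of members with the largest fold changes in each class and direction, at most 5, among called genes with a mean of at least 5 CPM, no overlap between the states and no place in an earlier account, so genes such as Sp5, Wnt3 and Evx1 are not drawn, ordered from higher in pEpiLCs to higher in aEpiLCs. Triangles are pEpiLC replicate 1, red points pEpiLC replicates 2 and 3, grey points EpiLCs and blue points aEpiLCs, and an open symbol lies below 0.04 CPM. For Cyp26a1, Frzb, Plxna2, Pcdh7, Cdh11 and Zfp703 the triangle stands far above the red points, while Wnt11, Nrcam, Cpt1a, Ebp and Nkx1-2 have the 3 pEpiLC libraries together.

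Genes of the apical junctions that seal an epithelium were lower in pEpiLCs where they were called. Of 24 tested tight junction genes, 8 were called higher in aEpiLCs and 0 higher in pEpiLCs in edgeR's quasi-likelihood test. In the pEpiLC direction 3 had an unadjusted p below 0.05, with 0 called in DESeq2 or limma voom and 1 in edgeR's likelihood ratio test. In all, 18 had every aEpiLC library above every pEpiLC library, an order held by 20.4% of all genes. The median log2 fold change was -0.97, and -0.74 without pEpiLC replicate 1. Cldn4 (ENSMUSG00000047501.3, chromosome 5, 134945119 to 134946934), a claudin of the junction strands, had 22.2, 24.1 and 27.7 CPM in pEpiLC and 102, 92.1 and 84.7 CPM in aEpiLC. For Cldn4 the log2 fold change was -1.91 ± 0.11 (SE) with adjusted p = 0.000119. Its paralog Cldn3 had 1.33, 10.8 and 7.12 CPM in pEpiLC and 32.7, 25.7 and 25.5 CPM in aEpiLC (log2 fold change -2.12 ± 0.56 (SE), adjusted p = 0.0404, and -2.71 without pEpiLC replicate 2), with replicate 1 lowest. Cgnl1, paracingulin, which links the junction to actin, had 66.1, 73.7 and 59.0 CPM in pEpiLC and 179.7, 231 and 183 CPM in aEpiLC. For Cgnl1 the log2 fold change was -1.58 ± 0.12 (SE) with adjusted p = 0.000334. Given for context, the log2 fold changes were -1.15 ± 0.20 for cingulin (Cgn), -1.13 ± 0.28 for Marveld2, -1.89 ± 0.41 for Marveld3, -1.93 ± 0.40 for Cldn1 and -1.55 ± 0.40 for the polarity gene Crb1. Of the scaffold genes, Tjp1 had -0.22 ± 0.09 and was not called. Of the tight junction calls named here, those lost were Cgn without aEpiLC replicate 1 or 2 (adjusted p 0.0501 to 0.0544), Cgn and Marveld2 without pEpiLC replicate 1 or in limma voom (log2 fold change -0.84 to -0.98), Cldn1 without aEpiLC replicate 2 or 3 (adjusted p 0.0714 to 0.075), Cldn3 and Marveld2 without any 1 of the aEpiLC replicates or pEpiLC replicate 3 (adjusted p 0.0753 to 0.131), Crb1 without aEpiLC replicate 1 or 2 or pEpiLC replicate 2 or 3 or in DESeq2 or with the replicate block (adjusted p 0.0616 to 0.142) and Marveld3 without any 1 of the aEpiLC replicates (adjusted p 0.0714 to 0.086).

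Desmosome and keratin genes gave 0 called higher in pEpiLCs in edgeR's test (1 at an unadjusted p below 0.05, 0 in DESeq2 or limma voom and 1 in the likelihood ratio test) and 5 called higher in aEpiLCs among 14 tested, with a median of -0.57 and -0.80 without pEpiLC replicate 1. Krt8 (ENSMUSG00000049382.10, chromosome 15, 101996698 to 102004482), a keratin of simple epithelia, had 46.8, 37.2 and 37.0 CPM in pEpiLC and 91.0, 104 and 106 CPM in aEpiLC (log2 fold change -1.31 ± 0.11 (SE), adjusted p = 0.000545), and its EpiLC level was lower still at 18.7, 21.5 and 24.4 CPM. Its partner Krt18 had 13.5, 28.2 and 28.1 CPM in pEpiLC and 54.2, 68.6 and 67.4 CPM in aEpiLC. For Krt18 the log2 fold change was -1.45 ± 0.26 (SE) with adjusted p = 0.0118. Dsc2, a desmosomal cadherin, had 12.5, 9.82 and 9.61 CPM in pEpiLC and 22, 23.4 and 20.3 CPM in aEpiLC (log2 fold change -1.04 ± 0.14 (SE), adjusted p = 0.00344), while Dsp, which anchors keratin at the desmosome, was not called (1.05 ± 0.36, adjusted p = 0.0959). Krt7 is also on the trophoblast list above, and Ppl, periplakin, was the fifth, with log2 fold changes of -1.41 ± 0.25 and -1.24 ± 0.29. Of the keratin and desmosome calls named here, those lost were Dsc2 without aEpiLC replicate 2 or pEpiLC replicate 2 or 3 (log2 fold change -0.98 to -0.99), Krt18 without aEpiLC replicate 2 or 3 (adjusted p 0.0573 to 0.0601), Krt7 without aEpiLC replicate 3 (adjusted p 0.0514), Ppl without any 1 of the aEpiLC replicates or pEpiLC replicate 2 (adjusted p 0.0561 to 0.0992) and Ppl without pEpiLC replicate 1 (log2 fold change -0.95).

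**Figure D3:**
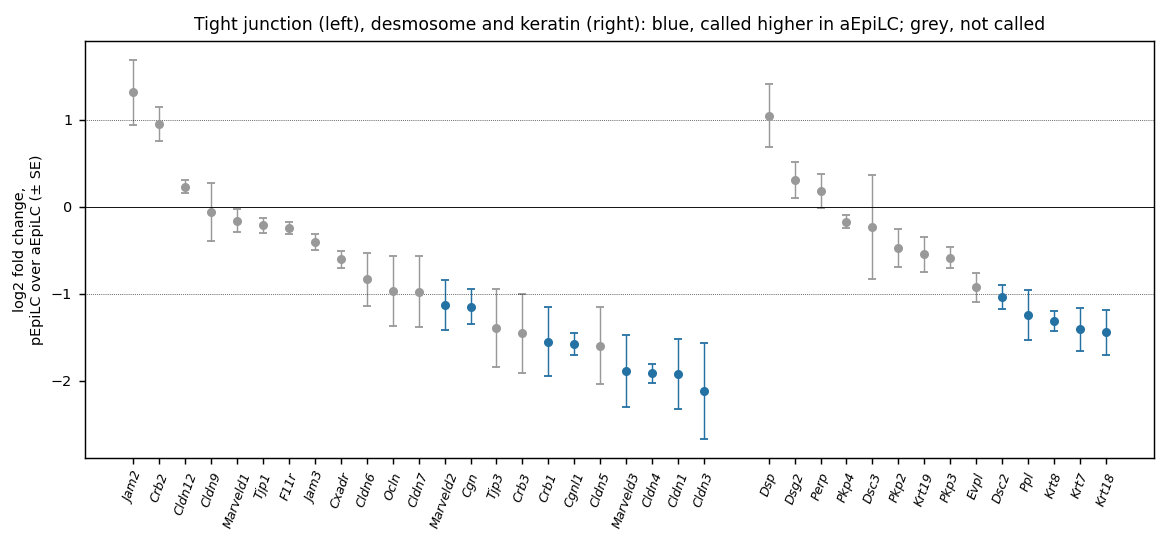
Log2 fold change with its standard error (vertical axis, pEpiLC over aEpiLC) of tested tight junction genes on the left and tested desmosome and keratin genes on the right. Blue points were called higher in aEpiLCs and grey points were not called, and dotted lines mark the limits of -1 and 1; most points lie below 0, and Jam2, Crb2 and Dsp are the highest.

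Cadherins and protocadherins had 4 members (5.88%) higher in pEpiLCs and 3 (4.41%) in aEpiLCs among 68 tested, with a median of 0.02. The shares of all genes were 2.55% and 4.74%. The counts for this list were 4 and 6 of 72 without pEpiLC replicate 1 (median -0.13). Pcdh8, paraxial protocadherin, a cell adhesion gene of streak and paraxial mesoderm, had 30.1, 11.04 and 8.73 CPM in pEpiLC and 3.80, 3.56 and 1.61 CPM in aEpiLC. For Pcdh8 the log2 fold change was 2.48 ± 0.53 (SE) with adjusted p = 0.0211, and 1.73 without pEpiLC replicate 1. Pcdh7 had 121, 10.4 and 9.74 CPM in pEpiLC and 1.64, 0.990 and 1.43 CPM in aEpiLC. For Pcdh7 the log2 fold change was 5.12 ± 1.15 (SE) with adjusted p = 0.0243, and 2.90 without pEpiLC replicate 1. Cdh11, a cadherin of mesenchyme, had 82.9, 12.3 and 10.1 CPM in pEpiLC and 3.28, 2.07 and 2.44 CPM in aEpiLC. For Cdh11 the log2 fold change was 3.76 ± 0.86 (SE) with adjusted p = 0.0264, and 2.12 without pEpiLC replicate 1. Both were far higher in replicate 1 than in the other pEpiLC libraries. Those libraries also lay above every aEpiLC library, but this was a condition for naming the genes. Pcdh1 was higher in aEpiLCs, with 26.7, 52.5 and 48.4 CPM in pEpiLC and 162, 150.1 and 154 CPM in aEpiLC. For Pcdh1 the log2 fold change was -1.87 ± 0.22 (SE) with adjusted p = 0.00201. Cdh1, the epithelial E-cadherin, had 534, 797 and 765 CPM in pEpiLC and 1066, 1103 and 1073 CPM in aEpiLC, a log2 fold change of -0.63 ± 0.14 (adjusted p = 0.0231), which was short of the limit on fold change. Cdh2, the N-cadherin gene, was not called, with 275, 21.5 and 19.8 CPM in pEpiLC and 33.5, 28.7 and 31.5 CPM in aEpiLC. The fourth called gene, Pcdhgc3, shares exons with the rest of its cluster, so its counts cannot be assigned with certainty. Of the cadherin calls named here, those lost were Pcdh8, Pcdh7 and Cdh11 without any 1 of the aEpiLC replicates (adjusted p 0.0683 to 0.113) and Pcdhgc3 without aEpiLC replicate 2 (adjusted p 0.0523).

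Of 53 immunoglobulin and leucine-rich adhesion genes tested, 6 were called higher in pEpiLCs and 3 in aEpiLCs, with a median of -0.26. Nrcam (ENSMUSG00000020598.16, chromosome 12, 44328885 to 44601964), an immunoglobulin adhesion molecule of the L1 family, had 96.0, 116 and 119.8 CPM in pEpiLC and 25.6, 16.4 and 15.1 CPM in aEpiLC. For Nrcam the log2 fold change was 2.54 ± 0.20 (SE) with adjusted p = 0.000361. On the aEpiLC side stood Lrrn1, a leucine-rich repeat membrane protein, with 5.15, 9.17 and 7.12 CPM in pEpiLC and 34.3, 35.2 and 29.4 CPM in aEpiLC. For Lrrn1 the log2 fold change was -2.20 ± 0.20 (SE) with adjusted p = 0.000684. Mcam, an adhesion molecule of the immunoglobulin family, had 4.43, 5.74 and 9.70 CPM in pEpiLC and 22.9, 17.9 and 22.9 CPM in aEpiLC. For Mcam the log2 fold change was -1.68 ± 0.28 (SE) with adjusted p = 0.008. Other called members were Kirrel2 (2.14 ± 0.47), Nphs1 (1.83 ± 0.34), Alcam (1.68 ± 0.29), Lrfn5 (2.27 ± 0.57) and Nrxn2 (-1.23 ± 0.26), given for context. EpiLC levels of Kirrel2 (19.8 to 27.9 CPM) and Nphs1 (28.4 to 39.2 CPM) were above those in both later states. Of the immunoglobulin calls named here, those lost were Alcam without aEpiLC replicate 2 (adjusted p 0.0538), Kirrel2 without any 1 of the aEpiLC replicates or pEpiLC replicate 2 or 3 (adjusted p 0.055 to 0.0949), Nphs1, Lrfn5 and Nrxn2 without any 1 of the aEpiLC replicates (adjusted p 0.0554 to 0.13) and Nrxn2 without pEpiLC replicate 1 (log2 fold change -0.95).

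Among integrins and their linkers, 2 of 37 tested were higher in pEpiLCs and 4 in aEpiLCs (median -0.19). Itga6, a laminin-binding integrin chain, had 34.1, 55.3 and 49.7 CPM in pEpiLC and 127, 115 and 113 CPM in aEpiLC. For Itga6 the log2 fold change was -1.35 ± 0.16 (SE) with adjusted p = 0.00216. Fermt1, a kindlin that activates integrins, had 10.5, 15.8 and 15.6 CPM in pEpiLC and 34.3, 30.7 and 28.7 CPM in aEpiLC. For Fermt1 the log2 fold change was -1.16 ± 0.17 (SE) with adjusted p = 0.00467. Itga1, a collagen-binding chain, was higher in pEpiLCs, with 36.2, 18.9 and 15.1 CPM in pEpiLC and 9.71, 7.56 and 6.25 CPM in aEpiLC. For Itga1 the log2 fold change was 1.58 ± 0.34 (SE) with adjusted p = 0.0206. In the basement membrane list of 30 tested genes, 1 (3.33%) was higher in each state, against 2.55% and 4.74% of all genes. Leaving out pEpiLC replicate 1 gave 2 higher in pEpiLCs and 2 in aEpiLCs of 30 basement membrane genes tested (median -0.02). Frem2, an extracellular matrix protein of the FRAS1 family, had 127, 159 and 148 CPM in pEpiLC and 46.9, 35.9 and 31.4 CPM in aEpiLC (log2 fold change 1.93 ± 0.15 (SE), adjusted p = 0.000363), and both later states were above the EpiLC level of 5.50, 5.99 and 5.49 CPM. Of 32 collagen genes, those called were Col27a1 (1.52 ± 0.40, or 0.91 without pEpiLC replicate 1) and Col16a1 (1.18 ± 0.19) on the pEpiLC side and Col9a3 (-1.08 ± 0.19) on the other. Their shares were 6.25% and 3.12%. With pEpiLC replicate 1 left out, 1 of 32 collagen genes were called on the pEpiLC side and 1 on the other (median -0.36). Of the integrin and basement membrane calls named here, those lost were Col27a1 without pEpiLC replicate 1 (log2 fold change 0.91), Col9a3 without aEpiLC replicate 2 (adjusted p 0.052), Col9a3 without pEpiLC replicate 1 or in limma voom (log2 fold change -0.92 to -0.97), Fermt1 without pEpiLC replicate 1 (log2 fold change -0.99) and Itga1 and Col27a1 without any 1 of the aEpiLC replicates (adjusted p 0.0549 to 0.15).

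Proteoglycans and matricellular proteins were mostly higher in aEpiLCs where they were called, with 11 of 35 tested against 1 higher in pEpiLCs. The median was -0.28. The call on the pEpiLC side was lost without pEpiLC replicate 1, and the aEpiLC side then held 9 of 35 (median -0.27). Sparc, a collagen-binding matrix protein, had 43.0, 68.9 and 74.7 CPM in pEpiLC and 156, 157 and 163 CPM in aEpiLC. For Sparc the log2 fold change was -1.35 ± 0.18 (SE) with adjusted p = 0.00349. Gpc4, a glypican, had 18.9, 19.6 and 24.04 CPM in pEpiLC and 60.7, 53.7 and 61.2 CPM in aEpiLC. For Gpc4 the log2 fold change was -1.49 ± 0.12 (SE) with adjusted p = 0.000334. Thbs1 (thrombospondin 1) had 2.57, 17.2 and 22.8 CPM in pEpiLC and 54.9, 92.7 and 86.7 CPM in aEpiLC. For Thbs1 the log2 fold change was -2.46 ± 0.61 (SE) with adjusted p = 0.0337. Spp1 (osteopontin) had 0.524, 4.08 and 3.22 CPM in pEpiLC and 14.8, 27.9 and 24.6 CPM in aEpiLC (log2 fold change -3.10 ± 0.56 (SE), adjusted p = 0.0118), with replicate 1 lowest in pEpiLC for both. Spon1, given for context, had 1.14 to 2.78 CPM in pEpiLC and 45.3 to 59.6 CPM in aEpiLC. Dcn, on the fibroblast list above, had 0.184 to 0.304 CPM in pEpiLC and 1.31 to 2.12 CPM in aEpiLC. Gpc6 was the member higher in pEpiLCs (20.7, 11.6 and 10.8 CPM in pEpiLC and 7.65, 7.83 and 5.15 CPM in aEpiLC). Matrix proteases and inhibitors had 2 of 45 tested members higher in pEpiLCs and 8 in aEpiLCs, with a median of -0.19. Adamts9 (ENSMUSG00000030022.14, chromosome 6, 92772699 to 92943492), a secreted protease that cleaves proteoglycans, had the highest fold change of the adhesion class. Its levels were 276, 93.5 and 70.1 CPM in pEpiLC and 3.57, 4.05 and 3.31 CPM in aEpiLC (log2 fold change 5.33 ± 0.58 (SE), adjusted p = 0.00142, and 4.49 without pEpiLC replicate 1), against 8.02, 6.79 and 8.35 CPM in EpiLC. Its family member Adamts1 went the other way, with 4.67, 4.65 and 5.33 CPM in pEpiLC and 10.3, 11.4 and 9.29 CPM in aEpiLC (log2 fold change -1.08 ± 0.15 (SE), adjusted p = 0.004), and so did the metalloprotease gene Mmp11, with 5.24, 4.52 and 3.91 CPM in pEpiLC and 10.2, 9.27 and 8.41 CPM in aEpiLC. For Mmp11 the log2 fold change was -1.03 ± 0.17 (SE) with adjusted p = 0.00806. Of the matrix calls named here, those lost were Adamts1 without aEpiLC replicate 2 (log2 fold change -0.998), Gpc6 without pEpiLC replicate 1 or in limma voom (log2 fold change 0.71 to 0.75), Mmp11 without aEpiLC replicate 1 or pEpiLC replicate 3 (log2 fold change -0.93 to -0.96), Spp1 without aEpiLC replicate 2 or 3 (adjusted p 0.0569 to 0.0614) and Thbs1 and Gpc6 without any 1 of the aEpiLC replicates or pEpiLC replicate 2 (adjusted p 0.0507 to 0.145).

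The largest difference among metabolic genes was that of a glucose transporter. Slc2a1 (ENSMUSG00000028645.11, chromosome 4, 119108711 to 119137983), which encodes GLUT1, had 104, 192 and 152 CPM in pEpiLC and 1439, 1389 and 1458 CPM in aEpiLC. For Slc2a1 the log2 fold change was -3.26 ± 0.20 (SE) with adjusted p = 0.00015. Its EpiLC level was 219.6, 216 and 283 CPM, so aEpiLCs stood above both other states. The other called member of the 34 tested glycolysis and lactate genes was Pdk4, a kinase that inhibits pyruvate dehydrogenase, at 0.348 to 0.735 CPM in pEpiLC and 1.61 to 2.16 CPM in aEpiLC. Enzymes of the glycolytic pathway were not called where they are named here. Log2 fold changes were -0.06 ± 0.07 for Hk2, -0.03 ± 0.14 for Pfkl, 0.13 ± 0.14 for Aldoa, 0.04 ± 0.10 for Pkm and 0.15 ± 0.16 for Ldha. Slc2a3, which encodes GLUT3, had 77.8, 226 and 177 CPM in pEpiLC and 335, 371 and 327 CPM in aEpiLC, a log2 fold change of -1.10 ± 0.32 (adjusted p = 0.0582). In edgeR's test 0 of 25 glycogen and hexosamine genes and 0 of 39 pentose phosphate and TCA cycle genes were called in either direction, and DESeq2, limma voom and the likelihood ratio test also called 0. At an unadjusted p below 0.05 the first list had 3 members higher in pEpiLCs and 5 in aEpiLCs, and the second 9 and 1. Without pEpiLC replicate 1, 1 glycogen and hexosamine gene was called higher in aEpiLCs. Log2 fold changes in the second list lay between -0.41 and 0.54. No glycolysis gene was called higher in pEpiLCs by any of the 4 tests, with 2 at an unadjusted p below 0.05. The call was lost for Pdk4 without aEpiLC replicate 1 or 2 (adjusted p 0.0525 to 0.0623).

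Lipid and amino acid genes held single members that differed. Cpt1a (ENSMUSG00000024900.5, chromosome 19, 3322334 to 3385733), the rate-limiting carnitine palmitoyltransferase of fatty acid oxidation, had 28.2, 25.7 and 29.9 CPM in pEpiLC and 4.32, 3.10 and 3.73 CPM in aEpiLC. For Cpt1a the log2 fold change was 2.91 ± 0.15 (SE) with adjusted p = 8.82e-05. EpiLC stood between at 11.4, 15.7 and 13.97 CPM. Acsl4, which activates long polyunsaturated fatty acids, had 83.8, 126 and 105 CPM in pEpiLC and 286, 281 and 258 CPM in aEpiLC. For Acsl4 the log2 fold change was -1.39 ± 0.14 (SE) with adjusted p = 0.000915. With Fads3 these were the 3 called of 51 fatty acid genes (1.96% higher in pEpiLCs and 3.92% in aEpiLCs, median 0.11). Ebp, a sterol isomerase, was the 1 called of 27 cholesterol genes, with 32.9, 32.9 and 28.6 CPM in pEpiLC and 8.35, 7.92 and 9.38 CPM in aEpiLC (log2 fold change 1.88 ± 0.12 (SE), adjusted p = 0.00015), while the median of that list was -0.19. On the aEpiLC side edgeR's test, DESeq2 and limma voom called 0 cholesterol genes, the likelihood ratio test called 1, and 8 had an unadjusted p below 0.05. Sat1, which acetylates polyamines for export, had 25.8, 37.2 and 39.6 CPM in pEpiLC and 10.9, 10.3 and 9.89 CPM in aEpiLC. For Sat1 the log2 fold change was 1.72 ± 0.17 (SE) with adjusted p = 0.000915. Ada, adenosine deaminase, had 21.6, 8.82 and 10.6 CPM in pEpiLC and 3.19, 3.87 and 5.38 CPM in aEpiLC. For Ada the log2 fold change was 1.72 ± 0.37 (SE) with adjusted p = 0.0206. Sat1 and Ada were among the 4 members higher in pEpiLCs of 53 enzymes of amino acids, polyamines and nucleotides, as was Ido2 (2.52 ± 0.51, or 3.25 without aEpiLC replicate 1), and Kynu, of tryptophan breakdown, was the 1 higher in aEpiLCs (-2.19 ± 0.41). Slc16a10, a transporter of aromatic amino acids, had 56.6, 21.9 and 22.5 CPM in pEpiLC and 10.5, 9.04 and 10.3 CPM in aEpiLC (log2 fold change 1.76 ± 0.37 (SE), adjusted p = 0.0196, and 1.16 without pEpiLC replicate 1), and with Slc38a5 (2.17 ± 0.41) and Slc7a2 (2.18 ± 0.38) it made up the 3 of 37 amino acid transport genes higher in pEpiLCs. In the other direction edgeR's test called 0 of them and DESeq2 0, limma voom and the likelihood ratio test called 1 each, and 5 had an unadjusted p below 0.05. Of 49 glutathione, redox and metallothionein genes, 3 were higher in aEpiLCs and 0 in pEpiLCs in edgeR's test and in the 3 other tests (3 at an unadjusted p below 0.05). Gstm1, a glutathione transferase, had 10.4, 14.04 and 13.8 CPM in pEpiLC and 37.9, 35.1 and 30.9 CPM in aEpiLC (log2 fold change -1.44 ± 0.14 (SE), adjusted p = 0.000974) and the metallothionein gene Mt2 17.2, 25.6 and 16.9 CPM in pEpiLC and 53.4, 39.5 and 32.0 CPM in aEpiLC. For Mt2 the log2 fold change was -1.07 ± 0.23 (SE) with adjusted p = 0.0201. EpiLC levels of Mt2 were above both, at 143, 135 and 173 CPM. Of 31 serine, glycine and one-carbon genes, Folr1, a folate receptor, and Gnmt, a glycine methyltransferase, were higher in aEpiLCs, with log2 fold changes of -2.28 ± 0.28 and -1.19 ± 0.24. On the pEpiLC side that list had 0 calls in edgeR's test and in the 3 other tests, and 5 members had an unadjusted p below 0.05. Of the lipid and amino acid calls named here, those lost were Ada, Slc16a10, Slc38a5, Kynu and Gnmt without any 1 of the aEpiLC replicates (adjusted p 0.0519 to 0.0915), Fads3 without any 1 of the aEpiLC replicates or pEpiLC replicate 2 or 3 (adjusted p 0.0644 to 0.0956), Mt2 without aEpiLC replicate 1 or 2 or pEpiLC replicate 3 (adjusted p 0.0594 to 0.0727), Mt2 without pEpiLC replicate 1 or in limma voom (log2 fold change -0.96 to -0.97) and Slc7a2 and Ido2 without aEpiLC replicate 2 or 3 (adjusted p 0.0554 to 0.082).

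Homeobox genes lay on both sides. Of 43 tested members outside the HOX clusters, 6 were called higher in pEpiLCs and 2 in aEpiLCs, with a median of 0.04, while 1 of 15 HOX genes in the table passed the filter and was not called. Leaving out pEpiLC replicate 1 gave 8 higher in pEpiLCs and 6 in aEpiLCs of 45 such homeobox genes tested (median -0.14). Nkx1-2 (ENSMUSG00000048528.7, chromosome 7, 132594878 to 132599637), a factor of the caudal epiblast, had 71.4, 57.3 and 63.0 CPM in pEpiLC and 18.4, 9.54 and 14.2 CPM in aEpiLC (log2 fold change 2.19 ± 0.22 (SE), adjusted p = 0.000982), against 1.73, 1.84 and 1.19 CPM in EpiLC. Evx1, Cdx1 and Cdx2, known from the primitive streak and the posterior body, and Six2 were chosen after their values were seen. Evx1 was listed at 0 in the 3 aEpiLC libraries and had 135, 11.7 and 11.8 CPM in pEpiLC, at least 375-fold higher, or at least 83.3-fold without pEpiLC replicate 1, the floor being 3 counts per library. Cdx1 was at least 43.2-fold higher, or at least 5.24-fold without replicate 1. Cdx2 had 6.96, 1.04 and 0.919 CPM in pEpiLC and 0.235, 0 and 0.0460 CPM in aEpiLC, and Six2 was at least 57.7-fold higher, or at least 10.8-fold without replicate 1. On the aEpiLC side, Lmx1b, a LIM homeobox factor of the midbrain and hindbrain border, had 0, 0.130 and 0.184 CPM in pEpiLC and 6.01, 5.58 and 5.75 CPM in aEpiLC. For Lmx1b the log2 fold change was -5.69 ± 0.49 (SE) with adjusted p = 0.00052, and -6.30 without pEpiLC replicate 3, but its pEpiLC values lay at or near the detection limit and leave that size uncertain. Of the homeobox calls named here, those lost were Evx1, Cdx1, Cdx2 and Six2 without any 1 of the aEpiLC replicates (adjusted p 0.071 to 0.135).

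Forkhead, GATA and nuclear receptor genes had 4 members higher in pEpiLCs and 6 in aEpiLCs among 49 tested (median -0.04). Foxb1 (ENSMUSG00000059246.4, chromosome 9, 69757710 to 69760940), a forkhead factor, had 22.7, 32.0 and 39.5 CPM in pEpiLC and 4.13, 1.94 and 2.99 CPM in aEpiLC (log2 fold change 3.38 ± 0.30 (SE), adjusted p = 0.000635), against 0.0466 to 0.236 CPM in EpiLC. Rora, an orphan nuclear receptor, had 12.5, 8.30 and 6.94 CPM in pEpiLC and 3.10, 2.16 and 2.07 CPM in aEpiLC. For Rora the log2 fold change was 1.92 ± 0.28 (SE) with adjusted p = 0.00488. Foxd3 (ENSMUSG00000067261.4, chromosome 4, 99656299 to 99658622), a forkhead factor of pluripotent cells and neural crest, had 0.0477, 6.997 and 6.07 CPM in pEpiLC and 47.3, 36.04 and 42.2 CPM in aEpiLC. For Foxd3 the log2 fold change was -3.25 ± 0.78 (SE) with adjusted p = 0.0305. It was near 0 in pEpiLC replicate 1 and lower in the other pEpiLC libraries than in any aEpiLC library, and EpiLC (43.6, 37.2 and 32.9 CPM) overlapped aEpiLC. Foxp1 had 21.9, 34.0 and 26.1 CPM in pEpiLC and 84.5, 84.2 and 74.5 CPM in aEpiLC. For Foxp1 the log2 fold change was -1.57 ± 0.15 (SE) with adjusted p = 0.000915. Nr6a1, the germ cell nuclear factor, which represses pluripotency genes, had 94.2, 105 and 95.7 CPM in pEpiLC and 205, 226 and 211 CPM in aEpiLC. For Nr6a1 the log2 fold change was -1.12 ± 0.07 (SE) with adjusted p = 0.000155. Esrrb and Nr0b1, factors of naive ESCs and on the list above, went in opposite directions, by 1.52 ± 0.19 and -1.75 ± 0.40. Of the forkhead and nuclear receptor calls named here, those lost were Foxd3 without any 1 of the aEpiLC replicates or pEpiLC replicate 3 or in DESeq2 (adjusted p 0.061 to 0.109) and Nr0b1 without any 1 of the aEpiLC replicates or pEpiLC replicate 2 (adjusted p 0.0668 to 0.0939).

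Of 63 zinc finger genes tested, 5 were higher in pEpiLCs and 9 in aEpiLCs, with a median of -0.06. The SALL paralogs Sall3 and Sall2 went in opposite directions. Sall3 had 62.3, 25.4 and 28.1 CPM in pEpiLC and 5.58, 3.60 and 5.33 CPM in aEpiLC. For Sall3 the log2 fold change was 2.998 ± 0.38 (SE) with adjusted p = 0.00277. Sall2 had 53.7, 89.2 and 91.7 CPM in pEpiLC and 225, 247 and 252 CPM in aEpiLC. For Sall2 the log2 fold change was -1.63 ± 0.19 (SE) with adjusted p = 0.00181. Zfp703, a repressor of the NET family, had 50.5, 3.22 and 3.17 CPM in pEpiLC and 0.985, 0.765 and 1.15 CPM in aEpiLC (log2 fold change 4.29 ± 1.20 (SE), adjusted p = 0.0495, and 1.73 without pEpiLC replicate 1), most of it in replicate 1. KLF genes were higher in aEpiLCs where they were called. Klf6 had 20.02, 42.1 and 44.9 CPM in pEpiLC and 99.4, 123 and 126 CPM in aEpiLC. For Klf6 the log2 fold change was -1.70 ± 0.27 (SE) with adjusted p = 0.00737. Klf13 had 28.4, 38.1 and 37.3 CPM in pEpiLC and 66.4, 73.6 and 69.1 CPM in aEpiLC. For Klf13 the log2 fold change was -1.01 ± 0.12 (SE) with adjusted p = 0.00195. Klf7 and Klf2 followed with -1.14 ± 0.16 and -1.83 ± 0.32, and Wt1, a factor of kidney and gonad development, with -2.69 ± 0.28. Of the zinc finger calls named here, those lost were Klf13 without aEpiLC replicate 2 or pEpiLC replicate 1 or in limma voom (log2 fold change -0.88 to -0.97), Klf7 without pEpiLC replicate 1 (log2 fold change -0.96) and Zfp703 without any 1 of the aEpiLC replicates or with the stricter filter or in limma voom (adjusted p 0.0503 to 0.167).

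POU, SOX and T-box genes had 2 of 22 tested members higher in pEpiLCs and 3 in aEpiLCs, outside the markers (median -0.20). Sox4 had 84.2, 66.5 and 59.6 CPM in pEpiLC and 151, 148 and 156 CPM in aEpiLC. For Sox4 the log2 fold change was -1.11 ± 0.12 (SE) with adjusted p = 0.00151. Sox13 had 6.67, 12.9 and 8.55 CPM in pEpiLC and 25.1, 25.2 and 21.98 CPM in aEpiLC. For Sox13 the log2 fold change was -1.36 ± 0.22 (SE) with adjusted p = 0.00813. Sox3, given for context, was lower in pEpiLCs as well (-1.93 ± 0.34). Pou6f1 had 10.5, 6.74 and 6.85 CPM in pEpiLC and 1.22, 1.84 and 2.21 CPM in aEpiLC. For Pou6f1 the log2 fold change was 2.19 ± 0.28 (SE) with adjusted p = 0.00306. Of 43 bHLH genes, 2 (4.65%) were higher in each state, against 2.55% and 4.74% of all genes. With pEpiLC replicate 1 left out, 1 of 44 bHLH genes were called on the pEpiLC side and 2 on the other (median -0.06). Mycl, a MYC family member, had 99.8, 71.8 and 58.8 CPM in pEpiLC and 34.1, 34.3 and 30.6 CPM in aEpiLC (log2 fold change 1.22 ± 0.18 (SE), adjusted p = 0.00558), while Myc was not called (0.66 ± 0.21, adjusted p = 0.0689). Tfeb, a regulator of lysosome genes, had 14.3, 5.39 and 7.17 CPM in pEpiLC and 2.35, 1.67 and 2.53 CPM in aEpiLC. For Tfeb the log2 fold change was 2.04 ± 0.39 (SE) with adjusted p = 0.0136. Neurod1, a neuronal differentiation factor, had 1.81, 4.61 and 6.80 CPM in pEpiLC and 15.8, 16.9 and 20.3 CPM in aEpiLC. For Neurod1 the log2 fold change was -1.998 ± 0.39 (SE) with adjusted p = 0.0152. Of 95 ETS, AP-1, TEAD and other genes, 5 (5.26%) were called on the pEpiLC side and 7 (7.37%) on the aEpiLC side (median -0.11). Irf1, an interferon regulatory factor, had 67.8, 34.3 and 35.6 CPM in pEpiLC and 18.6, 17.9 and 11.9 CPM in aEpiLC (log2 fold change 1.51 ± 0.30 (SE), adjusted p = 0.0156), and the AP-1 gene Jund had 26.6, 46.1 and 47.7 CPM in pEpiLC and 86.3, 83.9 and 117 CPM in aEpiLC. For Jund the log2 fold change was -1.25 ± 0.23 (SE) with adjusted p = 0.012. Jun was also higher in aEpiLCs (-1.09 ± 0.22), and Rel and Stat4 had log2 fold changes of 1.21 ± 0.28 and -1.05 ± 0.18. Of the POU, SOX, bHLH and AP-1 calls named here, those lost were Jun without aEpiLC replicate 2 or 3 (adjusted p 0.0674 to 0.0732), Jun without pEpiLC replicate 1 or in limma voom (log2 fold change -0.91 to -0.96), Mycl without pEpiLC replicate 1 (log2 fold change 0.99), Rel without pEpiLC replicate 1 or in limma voom (log2 fold change 0.85 to 0.88), Sox3 and Jund without aEpiLC replicate 3 (adjusted p 0.0546 to 0.0563), Stat4 without pEpiLC replicate 2 (log2 fold change -0.91) and Tfeb, Neurod1, Irf1 and Rel without any 1 of the aEpiLC replicates (adjusted p 0.0523 to 0.1).

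The level in pEpiLC replicate 1 differed from the other pEpiLC libraries for many members. It was more than 2-fold above both other pEpiLC libraries for 18.8% of signalling, 14.2% of adhesion and 14.6% of transcription factor members, against 2.02% of metabolic members and 3.46% of all genes. It was more than 2-fold below both for 7.23%, 8.28% and 6.33% of these members, for 3.47% of metabolic members and for 4.14% of all genes. Among the 104 members called higher in pEpiLCs, the ratio of replicate 1 to the mean of replicates 2 and 3 had a median of 1.86 and quartiles of 1.19 and 2.74. Among the 116 called higher in aEpiLCs the median was 0.652, so in that set replicate 1 was mostly lower than its fellow libraries. These ratios are a description, since the values of replicate 1 helped to choose both sets. Without it, 97 of the 104 and 96 of the 116 stayed called. The labels and methods give these libraries no batch, and the cause was not tested.

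**Figure D4:**
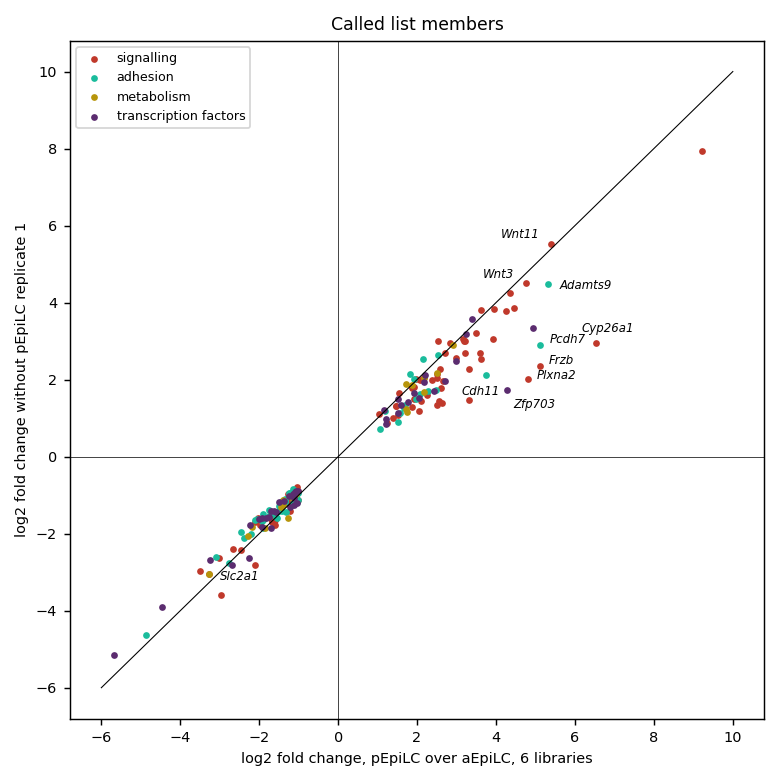
Log2 fold change (pEpiLC over aEpiLC) of called list members in the 6 libraries (horizontal axis) and without pEpiLC replicate 1 (vertical axis), coloured by class, with the line of equal values. Genes with 3 counts or fewer in every library of the other state are not drawn; Cyp26a1, Frzb, Plxna2, Pcdh7, Cdh11 and Zfp703 lie well under the line, and Wnt11 and Slc2a1 lie close to it.

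The EpiLC libraries place the differences relative to the start, as a description. For 37 of the 104 members higher in pEpiLCs, the 3 EpiLC libraries lay below every library of both later states, and for another 37 they overlapped aEpiLC alone. Between the states lay 17. Among the 116 members higher in aEpiLCs, EpiLCs lay between the states for 40, overlapped pEpiLC alone for 32 and aEpiLC alone for 23, and lay above both for 14. Examples of the 14 are Fgf4 and Mt2, and Axin2, Frem2 and Nrcam are examples of genes for which EpiLCs lay below both. Exons of some named genes overlap those of another annotated gene, and no source used here says that the counting used strand. Overlaps on the opposite strand concern Axin2, Epha1, Erbb2, Slc2a1, Cldn3, Adamts9, Krt8, Foxb1, Wnt11, Pcdh7, Pcdh8, Sox4, Jund and Zfp703 among others, so part of their counts could come from the partner. Tgfbr3, Fgfr2, Neurod1, Foxd3, Foxp1, Spp1, Itga1, Sema4a, Stat4 and Pcdhgc3 overlap a gene on the same strand.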

How the data were processed

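RNA-seq of 9 mouse cell culture libraries gave estimated counts per gene, which the authors made with STAR 2.7.9a and RSEM 1.3.1 on mm10 (GRCm38) and deposited without normalization. The annotation and strandedness are not given in the sources used here. Here the expected counts were rounded, and pEpiLC was tested against aEpiLC (3 libraries each) with edgeR 4.0.16 in R 4.3.3 (TMM, filterByExpr, quasi-likelihood test, Benjamini-Hochberg adjustment). Standard errors are the absolute log2 fold change divided by the square root of F. CPM used TMM factors over the 9 libraries. Symbols were matched to GENCODE vM21 (22803 of 23453 matched 1 gene), which gave coordinates. Promoters came from RefSeq tables.

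Members, lists and tests were chosen with earlier results of these data known. Of the list entries, 28 were not in the table. Named genes were, in each class and direction, the 5 with the largest fold change (mean of at least 5 CPM, libraries not overlapping, not in an earlier account) and up to 2 per list with the smallest adjusted p. Other genes were chosen after their values were seen. The fit was tested on simulated counts. Alternatives were DESeq2 1.42.0, limma 3.58.1 voom, edgeR's likelihood ratio test, RLE factors, other filters, all 9 libraries, a replicate block and leaving out each library. Some members are counted in the totals but not reported here by name or drawn in the plots.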

Additional observations from a re-analysis of the deposited data

How the results depend on the processing

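Dropping the limit on fold change and keeping the adjusted p gave 955 calls on the pEpiLC side and 1414 on the aEpiLC side in the whole table, with 55 signalling, 77 adhesion and 47 transcription factor genes higher in aEpiLCs, and 32 and 33 metabolic genes higher in pEpiLCs and aEpiLCs. Adhesion genes higher in pEpiLCs numbered 30 in the likelihood ratio test and 28 with all 9 libraries, and transcription factors 37 in that test and 14 with at least 10 counts in every library. Leaving out 1 library, so that 2 were set against 3, gave 180 to 419 calls on the pEpiLC side and 334 to 759 on the other in the whole table. For signalling the ranges were 26 to 63 and 16 to 45, for adhesion 7 to 21 and 26 to 46, for metabolism 4 to 9 and 4 to 11, and for transcription factors 9 to 26 and 17 to 33. With these alternatives 0 of the 100 named genes changed direction, which their choice as called genes without overlap between the states made near certain. Of the 100, 57 were called in each alternative that tested them. List medians were compared with the main fit for each pair of a list and an alternative. The yardstick was the standard deviation of the list's median level over the 3 pEpiLC libraries, replicate 1 among them. The median moved by more than this in 32 pairs and by less in 485.

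The labels do not say whether replicate numbers pair the samples. Deviations of same-numbered libraries correlated at 0.172, 0.117 and 0.0622, and every library correlated best with its own number. A weak pairing by number is therefore possible, and the main test had no block. With the replicate number as a block, 394 genes were called on the pEpiLC side and 729 on the other, with 53 and 37 signalling, 22 and 46 adhesion, 9 and 12 metabolic and 28 and 32 transcription factor genes. Counting error limits genes near 3 counts a library.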

Other observations

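Some members not called in the report differed chiefly in pEpiLC replicate 1, and they are given here as values, chosen after these were seen. Fn1, fibronectin, had 1748, 144 and 142 CPM in pEpiLC and 150.2, 156 and 118 CPM in aEpiLC. Cdh2, N-cadherin, was likewise high in that library alone, with 275, 21.5 and 19.8 CPM in pEpiLC and 33.5, 28.7 and 31.5 CPM in aEpiLC. Pdgfra, the receptor of PDGF-A, had 51.6, 2.13 and 2.11 CPM in pEpiLC and 0.704, 0.675 and 0.644 CPM in aEpiLC, and Aplnr, the apelin receptor, had 84.5, 1.78 and 1.52 CPM in pEpiLC and 0.375, 0.180 and 0.276 CPM in aEpiLC. For Fn1 and Cdh2 the other pEpiLC libraries lay near or below aEpiLC, and for Pdgfra and Aplnr they lay above it. Dll1, a Notch ligand, had 22.4, 2.09 and 2.44 CPM in pEpiLC and 17.3, 10.2 and 13.4 CPM in aEpiLC. Its log2 fold change without replicate 1 was -2.58 ± 0.24. That value follows from leaving out the library for which the gene was chosen and supports no difference between the states. The cause was not tested.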
